A study of Mus musculus with 9 samples.

Results

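The distal part of mouse chromosome 6 was examined gene by gene in the mouse embryonic stem cell line E14, of which 9 clones were sequenced. The region holds the genes of chromosome 6 that start at or after base 97183670 of GRCm38 and reach a mean of 1 CPM over the clones, where CPM is the share of a library's counts scaled to a fixed total. Ribosomal protein, proteasome, respiratory chain and ATP synthase, solute carrier, collagen, integrin and cadherin genes, recognised by the first letters of their symbols, and Nanog, Dppa3, Gdf3, Gapdh and Tpi1 were left out. Of 732 annotated genes in the region, 250 reached the level, 11 of these were left out by name, and 239 remained, among 13378 genes measured at that level in all. The 239 genes comprised 230 protein-coding genes and 9 pseudogenes and spanned 52.4 Mb, up to base 149563329. Clones 1, 6 and 13 were singled out from these same values, so their higher levels are described here without a test, and they are no group of the study.

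Mouse chromosomes carry the centromere at one end, so that the distal region runs to the far telomere. In cultured mouse embryonic stem cells, gains of whole chromosomes or of segments are known to arise, and transcript levels of many genes on a gained segment tend to follow the number of copies, while some genes are buffered. Distal chromosome 6 carries genes of many roles, from the cell cycle regulators Ccnd2 and Foxm1 to the pluripotency gene Nanog and the chromatin remodeller Chd4. DNA copy number was not measured in the data used here, and its part in the levels below was not tested.

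The clones had been isolated from bulk E14 for differing lipid droplet sizes and grown in serum with leukaemia inhibitory factor on gelatin, with no other treatment or genotype named. Droplet size is not given per clone in the labels used here, so each clone stands alone as 1 library. The spread between cultures of a clone was not measured. Totals ran from 10783718 to 14309662 estimated counts per clone, and the limit for a gene with a count of 0, taken as 3 counts, equals 0.209 to 0.293 CPM. The embryonic stem cell markers were present in all 9 clones, with Pou5f1 at 851 to 1289 CPM and Sox2 at 236 to 301 CPM. Of the fibroblast markers, Lum stayed at or below 0.0762 CPM, Dcn at or below 0.629 CPM and Postn at or below 0.489 CPM. Col1a2 ranged from 0.0719 to 8.76 CPM and was highest in clones 10 and 11, not in clones 1, 6 and 13.

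The promoters of 4 genes are shown because they stand on either side of the place where the levels change along the chromosome: Edem1 is the last gene before that place, Rad18 and Arpc4 lie beyond it with higher levels in clones 1, 6 and 13, and Chd4 lies beyond it without them. Each is the 250 bases upstream of the RefSeq gene start on GRCm38.p6, written 5′ to 3′ on the gene's strand. The windows of Edem1 (chr6:108828391-108828640, plus strand) and Chd4 (chr6:125095731-125095980, plus strand) overlap no gene annotated in GENCODE M21. That of Arpc4 (chr6:113377863-113378112, plus strand) shares 21 bases with Tada3 on the opposite strand. That of Rad18 (chr6:112696671-112696920, minus strand) reaches 16 bases into the annotated Rad18 gene and shares 144 bases with the long noncoding RNA gene Gm26799 on the opposite strand. Capitals mark matches on either strand to the TATA box TATAAA, the CCAAT box CCAAT, the GC box GGGCGG and the E-box CACGTG.
Edem1: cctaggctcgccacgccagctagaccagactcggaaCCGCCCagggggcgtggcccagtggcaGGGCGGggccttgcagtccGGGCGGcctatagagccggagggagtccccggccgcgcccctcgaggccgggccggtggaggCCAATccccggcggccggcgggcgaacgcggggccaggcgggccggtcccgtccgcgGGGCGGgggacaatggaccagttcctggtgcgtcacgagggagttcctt
Rad18: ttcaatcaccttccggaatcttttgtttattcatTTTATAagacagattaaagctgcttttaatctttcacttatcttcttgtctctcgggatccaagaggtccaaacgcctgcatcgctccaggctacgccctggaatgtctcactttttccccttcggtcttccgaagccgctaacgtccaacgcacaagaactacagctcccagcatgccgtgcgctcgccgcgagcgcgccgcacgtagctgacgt
Arpc4: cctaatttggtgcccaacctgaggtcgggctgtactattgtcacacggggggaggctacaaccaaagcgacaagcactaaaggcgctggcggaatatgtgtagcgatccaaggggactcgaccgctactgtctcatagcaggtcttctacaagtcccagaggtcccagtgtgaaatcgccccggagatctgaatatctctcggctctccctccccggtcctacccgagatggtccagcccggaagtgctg
Chd4: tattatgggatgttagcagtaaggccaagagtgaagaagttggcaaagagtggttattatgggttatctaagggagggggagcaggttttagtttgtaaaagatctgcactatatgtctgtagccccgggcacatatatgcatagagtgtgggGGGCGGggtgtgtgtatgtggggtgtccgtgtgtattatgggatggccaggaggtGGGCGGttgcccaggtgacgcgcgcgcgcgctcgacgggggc

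The Edem1 window held 4 GC boxes and 1 CCAAT box, that of Chd4 2 GC boxes, that of Rad18 1 TATA box on the opposite strand, and that of Arpc4 none of the motifs. Among the promoters of the 10071 measured genes with a RefSeq window, 6.16% held the TATA box, 37.1% the CCAAT box, 60.8% the GC box and 8.56% the E-box. A window was found for 173 of the 239 genes (72.4%), beside 75.3% of all genes. Of these 173, 8.67% held the TATA box, 28.9% the CCAAT box, 56.6% the GC box and 6.36% the E-box. The shares are a description, were not tested and leave out the genes without a window. The matches describe letters in these windows. As Arpc4 held none of the motifs, its promoter could share none with that of Rad18, and nothing follows from this.

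Over the 239 genes, the median level in clones 1, 6 and 13 exceeded that in clones 4, 8, 10, 11, 14 and 17 by a median of 0.58 on the log2 CPM scale, or 1.5-fold, with quartiles of 0.33 and 0.88. Over all 13378 genes the same median was 0.002. Clones 1, 6 and 13 were the 3 highest of the 9 clones for 132 genes (55.2%), where the share over all genes was 6.29%. They were the 3 lowest for 2 genes, where the share over all genes was 4.51%. The difference reached 1.2-fold upward for 191 genes (79.9%), beside 21.2% of all genes, and 1.2-fold downward for 11 genes (4.6%), beside 19.2% of all genes. These counts restate the choice of the 3 clones and are given as a description.

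Relative to the median of the other 6 clones, the 239 genes stood at a median of 0.66 (1.58-fold) in clone 1, 0.51 (1.42-fold) in clone 6 and 0.58 (1.5-fold) in clone 13. The medians of the 6 clones themselves lay between -0.01 in clone 14 and 0.02 in clone 4. The levels of the 239 genes summed to 20996, 20036 and 21010 CPM in clones 1, 6 and 13, while the other sums ran from 14489 (clone 10) to 15628 CPM (clone 4). The 3 sums did not overlap the other 6. Within the 3, clone 6 was the lowest for 139 of the 239 genes and clone 1 the highest for 124. Over all 13378 genes, clone 6 was the lowest of the 3 for 4582 and clone 1 the highest for 5650.

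The higher level did not begin at the start of the region. The first 19 genes, from Uba3 to Edem1 over 11.7 Mb, had a median difference of 0.07 (1.05-fold). For 0 of these 19 genes were clones 1, 6 and 13 the 3 highest, near the 6.29% over all genes. Their summed levels of 1029, 1190 and 1172 CPM in clones 1, 6 and 13 lay among the 1056 to 1322 CPM of the other clones, apart from clone 1, which was the lowest of all. After a gap of 3.76 Mb without a measured gene of the region, the level changed at Rad18, 15.4 Mb into the region. The data therefore go against the region's start as the border of the higher level, and the region is described below in 3 stretches, whose borders were chosen after the values were seen.

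**Figure D1:**
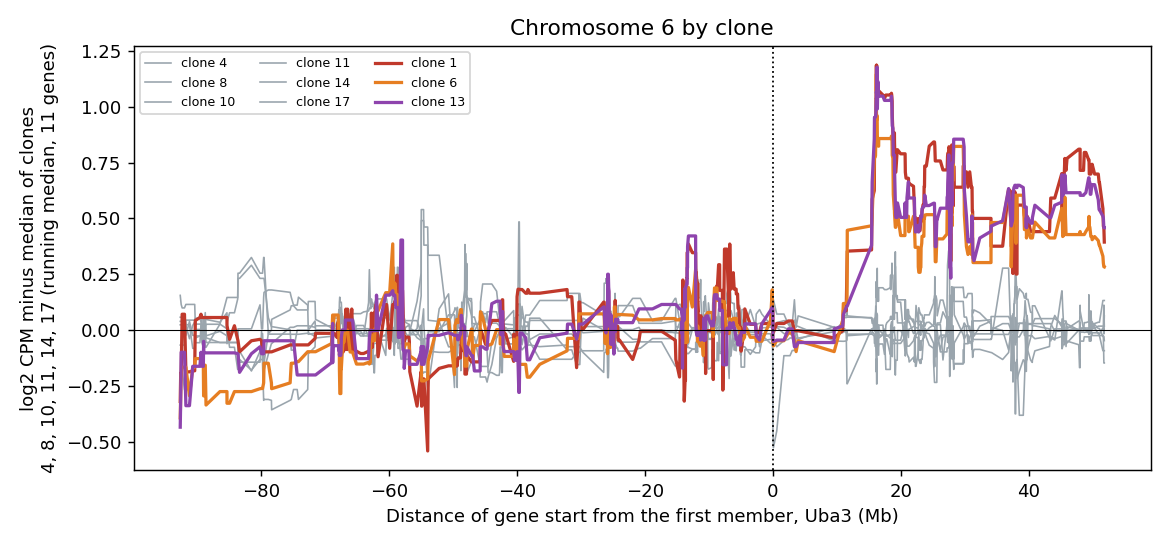
Running median over 11 genes of log2 CPM minus the median of clones 4, 8, 10, 11, 14 and 17, against the distance in Mb from the start of Uba3, with 1 line per clone. The lines of clones 1, 6 and 13 leave those of the other 6 clones about 15.4 Mb into the region and stay above them to its end.

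From Rad18 to the gene before Tmcc1, 40 genes over 3.38 Mb had a median difference of 1.00, or 2-fold, with quartiles of 0.89 and 1.27. All 40 were at least 1.2-fold higher, beside 21.2% of all genes. For 37 of them clones 1, 6 and 13 were the 3 highest, beside 6.29% of all genes. One of the 40, Atp2b2, reached a mean of 1 CPM only through clones 1, 6 and 13, at 0.629 CPM in the other 6, so that its higher level there was fixed by the choice of genes. Likewise, 3 genes of the other stretches, Eif4e3, Gm45234 and Gm8994, passed only through these clones, so a higher mean there was fixed. Yet Eif4e3 in clone 6 lay below the median of the other 6. For Gm45234 and Gm8994, clone 10 lay above clones 1 and 13. The exceptions to the 37 were Lhfpl4, Tmem40 and Plxnd1, each measured at a low level or high in 1 other clone. Relative to the median of the other 6, the clone medians were 1.05 (2.06-fold) in clone 1, 0.89 (1.85-fold) in clone 6 and 1.02 (2.03-fold) in clone 13. Summed levels were 2959, 2610 and 2890 CPM in these clones and 1436 to 1604 CPM in the others. Among the others, clone 4 had the highest level of 21 of the 40 genes and a median of 0.18 (1.13-fold), while the medians of the remaining clones lay between -0.05 and 0.01.

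From Tmcc1 to the end, 180 genes over 33.5 Mb had a smaller median difference of 0.52, or 1.44-fold, with quartiles of 0.33 and 0.73. Clones 1, 6 and 13 were the 3 highest for 95 of them (52.8%), beside 6.29% of all genes. At least 1.2-fold higher were 145 (80.6%), beside 21.2% of all genes, and at least 1.2-fold lower 8 (4.44%), beside 19.2%. The clone medians were 0.63 (1.54-fold), 0.45 (1.36-fold) and 0.55 (1.47-fold) in clones 1, 6 and 13. Clone 6 was thus lowest of the 3 in this stretch as in the one before it. Of 115 genes here whose mean reached 10 CPM, 111 had a difference above 0 and 74 had clones 1, 6 and 13 as the 3 highest. Over all 13378 genes, 6726 had a difference above 0 and 6.29% had the 3 clones highest.

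**Figure D2:**
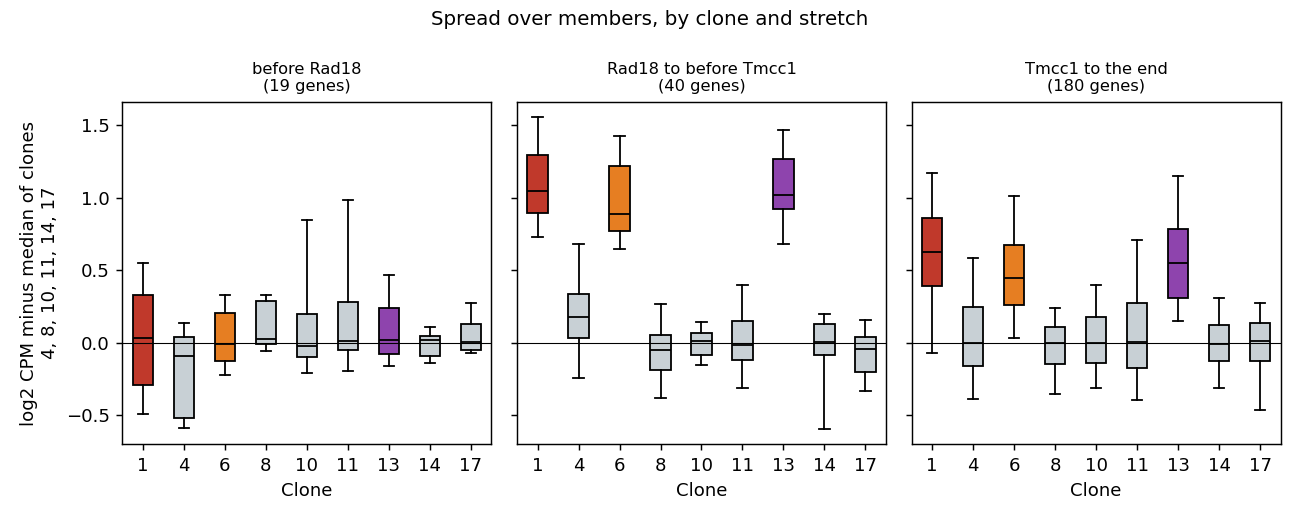
Difference of log2 CPM from the median of the other 6 clones per clone, in the 19, 40 and 180 genes of the 3 stretches, with boxes at the quartiles and whiskers from the tenth to the ninetieth percentile. The boxes of clones 1, 6 and 13 lie about 0 in the first stretch, near 1 in the second and near 0.5 in the third.

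In runs of 10 consecutive genes, the first 2 runs had median differences of 0.02 and 0.09 and the next 4 had 0.91, 1.12, 1.08 and 1.04. The 18 runs after these lay between 0.39 and 0.79, with no return to 0 before the end of the chromosome. Outside the region, 70 of 1300 runs of 10 genes reached 0.3, against 22 of the 24 runs inside it. At least 5 genes of a run had clones 1, 6 and 13 highest in 15 runs of the region and in 1 run elsewhere, on chromosome 14. A single run on chromosome 11, from D11Wsu47e to Cd300a, had a median difference of 1.06, as large as in the second stretch.

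**Figure D3:**
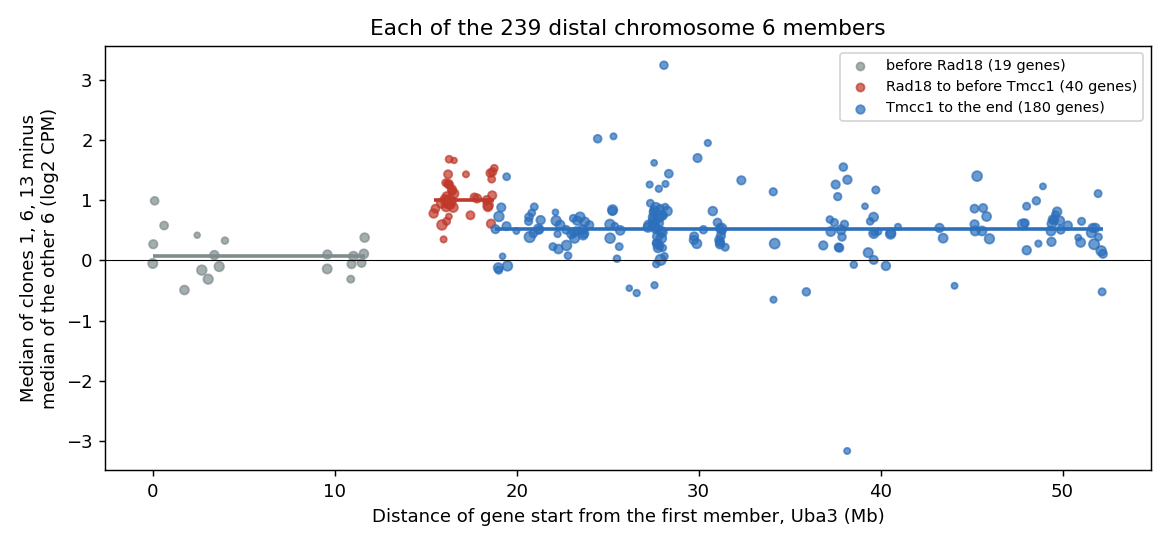
Difference between the median log2 CPM of clones 1, 6 and 13 and that of the other 6 clones for each of the 239 genes, against the distance in Mb from the start of Uba3, with larger points for genes of higher mean CPM and a line at the median of each stretch. The lines lie at 0.07, 1.00 and 0.52.

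Chromosome 6 before the start of the region differed from the region. Its 378 genes had a median difference of -0.02, and for 25 of them (6.61%) were clones 1, 6 and 13 the 3 highest. Just outside the start, the differences were -0.99 for Fam19a4, -0.30 for Eogt and -0.05 for Tmf1. Just inside it they were -0.05 for Uba3, which helps to activate the ubiquitin-like protein Nedd8, 0.27 for Arl6ip5 and 0.99 for Frmd4b, whose highest level was in clone 11. At the level limit, Eif4e3 and Atp2b2 entered at a mean of 1.04 CPM and Vmn2r20 at 1.1 CPM, with differences of 0.42, 1.66 and -0.46. Gpr27 at 0.982 CPM, Rep15 at 0.986 CPM and A330044P14Rik at 0.989 CPM stayed out, with -0.53, 0.17 and -0.72. Clones 1, 6 and 13 were the 3 highest for 9.32% of the genes of chromosome 11, 9.3% of chromosome 14, 1.12% of chromosome 8 and 3.12 to 6.58% of each remaining whole chromosome. The median difference was 0.28 on chromosome 11 and -0.40 on chromosome 8. Clones outside the 3 shared these levels. Relative to the median of the other 6, the chromosome 11 median was 0.31 in clone 1 and 0.29 in clone 4, and that of chromosome 8 was -0.44 in clone 1, -0.43 in clone 4 and -0.44 in clone 11.

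**Figure D4:**
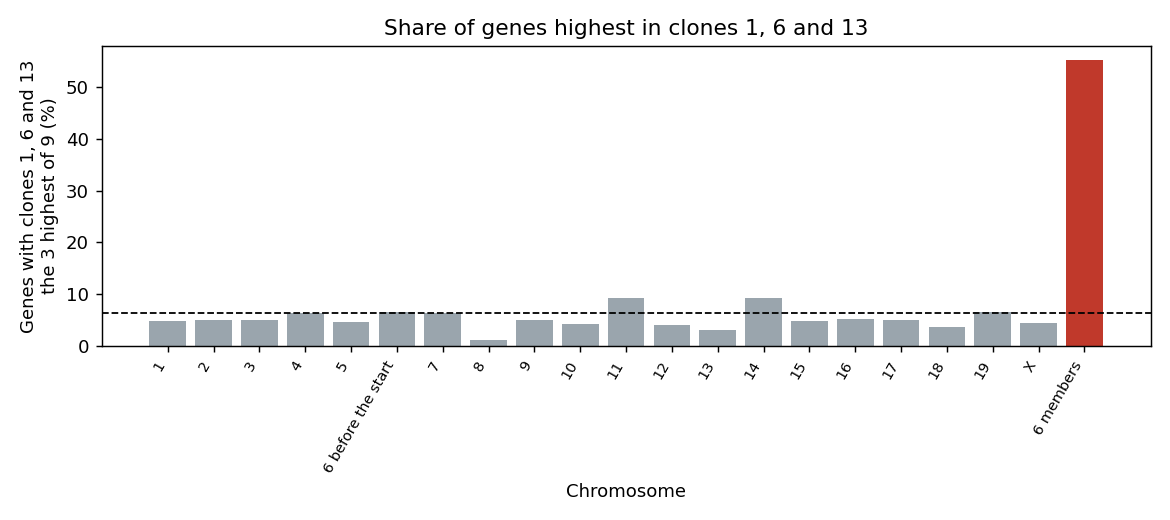
Percentage of genes for which clones 1, 6 and 13 were the 3 highest of 9 clones, by chromosome, with chromosome 6 before the start of the region and the 239 genes of the region (55.2%) as separate bars. The dashed line marks the 6.29% over all genes.

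In what follows, levels are listed for clones 1, 6 and 13 in that order, against the lowest and highest of the other 6 clones and, in brackets, their median. Counts for lists of genes by role are a description and no result about a role. Over the region, 55.2% of genes had the 3 clones highest and 79.9% were at least 1.2-fold higher. The shares over all genes were 6.29% and 21.2%. The genes of the first stretch showed no common order of the clones. Foxp1, a forkhead transcription factor, was at 45.9, 45.4 and 45.8 CPM against 44.8 to 70.9 CPM. Clone 4 had the 44.8 CPM, while clones 8, 10, 11, 14 and 17 had 63 to 70.9 CPM. Its difference of -0.49 was the lowest in the stretch, and clone 4 lay with the 3 clones. Rybp, a Polycomb protein, was at 115, 153 and 144 CPM against 119 to 196 CPM (median 178), and the groups overlapped. Trnt1, which adds the CCA end to transfer RNAs, was at 98.5, 89.6 and 89.4 CPM against 87.5 to 115 CPM (median 98.8). Itpr1, a calcium channel of the endoplasmic reticulum, was at 87.6, 112 and 107 CPM against 97.1 to 112 CPM (median 102), and Setmar, with a methyltransferase domain, at 3.8, 4.32 and 5.14 CPM against 3.74 to 7.98 CPM (median 5.56). Edem1, of the endoplasmic reticulum degradation pathway and last in the stretch, was at 54.8, 59.1 and 55.6 CPM against 38.6 to 67.1 CPM (median 42.7).

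Among the DNA repair genes, Rad18, the first gene of the second stretch and the ubiquitin ligase that marks PCNA at stalled replication forks and whose promoter is shown above, was at 57.7, 57.5 and 67.8 CPM against 28.4 to 40.5 CPM (median 33.5). The groups did not overlap, the difference was 0.78 (1.72-fold), and clone 13 stood 2.39-fold above clone 4 (95% interval 2.12 to 2.71). Such intervals are exact binomial ones for the ratio of counts in 2 libraries and cover counting error only. Fancd2, the central protein of the Fanconi anaemia pathway, was at 165, 141 and 164 CPM against 77.5 to 100 CPM (median 85.9), a 1.9-fold difference. The base excision enzymes Ogg1 and Mbd4 differed 2.1-fold and 2.12-fold. Of the 12 listed repair genes 11 were in the region, 9 of them had clones 1, 6 and 13 as the 3 highest, 10 were at least 1.2-fold higher and 1 lower, with a median of 0.54. The lower gene was Setmar, before Rad18, and Rad52, 1.43-fold higher, overlapped between the groups. Usp5, which recycles ubiquitin chains and lies in the third stretch, was at 399, 356 and 388 CPM against 225 to 320 CPM (median 267).

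Cell growth regulators included Vhl, of the ubiquitin ligase for hypoxia-inducible factors, at 50.3, 38.4 and 49.1 CPM against 20.7 to 27.8 CPM (median 21.6). Vhl lies in the second stretch, differed 2.26-fold and showed no overlap. Of the 16 genes of the list in the region, 10 had clones 1, 6 and 13 highest, 14 were at least 1.2-fold higher and 0 lower, with a median of 0.69. Cdca3, a trigger of mitotic entry, was at 201, 155 and 175 CPM against 91.6 to 120 CPM (median 94.6), and the condensin subunit Ncapd2 at 420, 432 and 461 CPM against 278 to 388 CPM (median 313). The cell cycle inhibitor Cdkn1b did not separate the clones, at 24.6, 22.3 and 23.9 CPM against 8.39 to 27.6 CPM (median 20.8). Tigar, which acts on a regulator of glycolysis, was at 135, 143 and 151 CPM against 77 to 132 CPM (median 118) and had a difference of 0.28.

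Ccnd2, cyclin D2 of the G1 phase, varied widely. It was at 27.9, 48.8 and 51.8 CPM against 7.33 to 32.6 CPM (median 15.8). Clone 4 had the 32.6 CPM, clones 10 and 11 had 21 and 23.8 CPM, and clones 8, 14 and 17 had 7.33 to 10.6 CPM. The groups overlapped through clone 4, which lay above clone 1, and clone 13 stood 7.07-fold above clone 17 (5.73 to 8.79). Ldhb, a lactate dehydrogenase subunit, was at 458, 489 and 578 CPM against 136 to 327 CPM (median 186), again with clone 4 next (327 CPM). Its groups did not overlap, and its difference of 1.40 exceeded the 0.52 of its stretch. Tuba3a, an alpha tubulin, was at 19.4, 28.8 and 26.3 CPM against 0.934 to 11.8 CPM (median 2.86), and clones 8, 14 and 17 did not exceed 1.75 CPM. Clone 6 stood 30.9-fold above clone 17 (17.8 to 58.4). Reads of Tuba3a can be divided with near-identical tubulin genes, so its level is uncertain. Clones 8, 14 and 17 were the lowest for Ccnd2 and Tuba3a, while clone 10 (180 CPM) lay below clone 14 (192 CPM) for Ldhb.

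**Figure D5:**
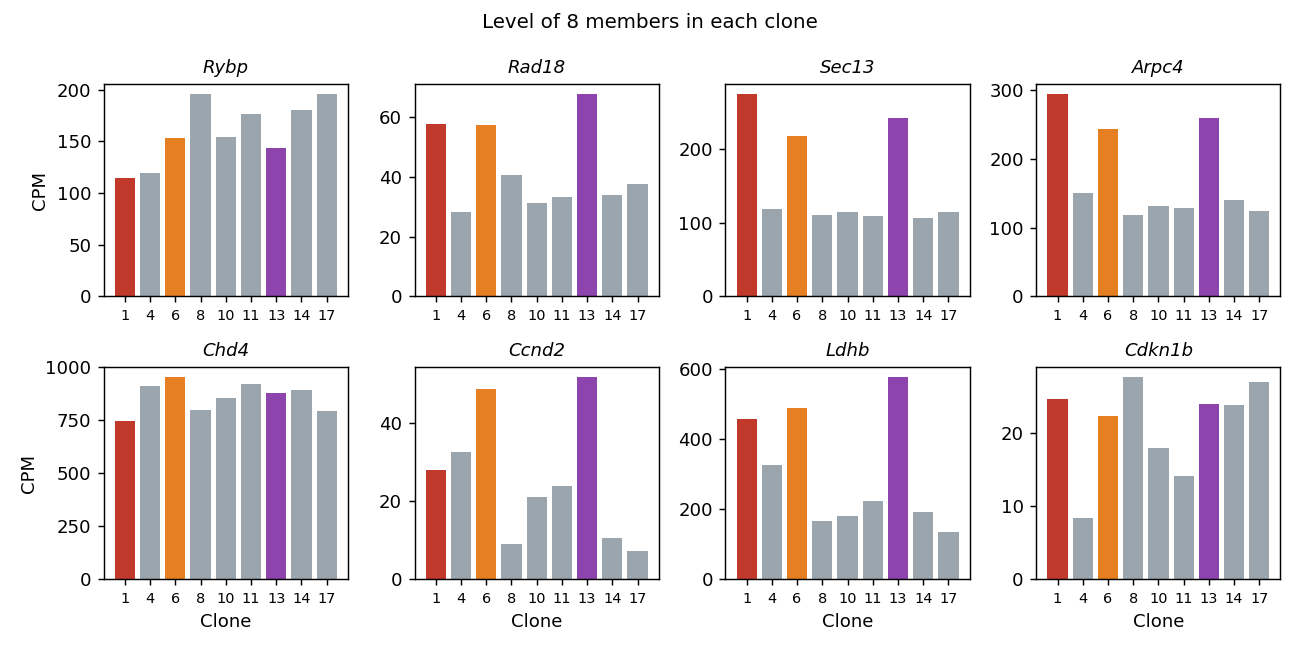
Level in CPM per clone of Rybp, Rad18, Sec13, Arpc4, Chd4, Ccnd2, Ldhb and Cdkn1b, 1 bar per library. Sec13 in clones 1, 6 and 13 stands at 218 to 275 CPM against 106 to 119 CPM (median 112), while Chd4 is lowest in clone 1 and highest in clone 6.

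Chromatin genes included members on both sides of the pattern. Chd4, the remodelling ATPase of the NuRD complex, was at 745, 953 and 878 CPM against 791 to 918 CPM (median 872). Its difference of 0.01 set it apart from genes beside it, with the highest level in clone 6 and the lowest in clone 1, 1.28-fold apart (1.24 to 1.32). Phc1, a Polycomb subunit, was at 343, 306 and 320 CPM against 228 to 275 CPM (median 247), and Sinhcaf, of the Sin3 deacetylase complex, at 644, 555 and 592 CPM against 436 to 531 CPM (median 492). Both separated the clones, by 1.3-fold and 1.2-fold. In the second stretch, Setd5, Brpf1 and Tada3 differed 1.5-fold, 1.85-fold and 1.92-fold. Of the 17 chromatin genes in the region, 10 had clones 1, 6 and 13 highest, 12 were at least 1.2-fold higher and 2 lower (Rybp and Setmar, both before Rad18), with a median of 0.37.

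Transcription factors had clones 1, 6 and 13 highest in 6 of 16 genes, with 11 at least 1.2-fold higher, 1 lower (Foxp1) and a median of 0.54. Tead4, the DNA-binding partner of Yap, was at 23.3, 20.4 and 22 CPM against 9.15 to 20.9 CPM (median 14.3), overlapping through clone 17. Foxm1, which drives mitotic genes, was at 47.2, 59.3 and 61.2 CPM against 33 to 56.9 CPM (median 49.3). Etv6, an ETS repressor, was at 35.1, 33.7 and 40.7 CPM against 25 to 37 CPM (median 29.4), and Zfp384 at 42.6, 42.7 and 40.8 CPM against 27.8 to 38.6 CPM (median 35.8). Of these 4 factors, Zfp384 alone had all 3 clones above the other 6.

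Genes of RNA processing and ribosome assembly had clones 1, 6 and 13 highest in 11 of 15, with 12 at least 1.2-fold higher and a median of 0.51. The splicing factor Hnrnpf was at 1207, 1143 and 1163 CPM against 786 to 948 CPM (median 890). Nop2 and Emg1, which modify ribosomal RNA, were at 457, 394 and 410 CPM against 289 to 363 CPM (median 318) and at 293, 227 and 256 CPM against 141 to 218 CPM (median 169). Strap, of the complex that assembles spliceosomal particles, was at 269, 246 and 281 CPM against 187 to 216 CPM (median 198). None of these 4 overlapped between the groups. Magohb, a copy of the exon junction protein Magoh, was at 11.6, 8.51 and 10.6 CPM against 0.79 to 12.5 CPM (median 5.66). Its clone 11 was 15.8-fold above clone 17 (8.63 to 32.3), with reads that may be shared with Magoh.

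Membrane traffic and cytoskeleton genes had clones 1, 6 and 13 highest in 12 of 20, with 16 at least 1.2-fold higher and a median of 0.57. Sec13, a coat protein of vesicles from the endoplasmic reticulum, was at 275, 218 and 242 CPM against 106 to 119 CPM (median 112), and clone 1 stood 2.59-fold above clone 14 (2.43 to 2.77). Arpc4, a subunit of the actin-branching Arp2/3 complex, was at 295, 244 and 259 CPM against 119 to 151 CPM (median 130). These genes of the second stretch differed 2.16-fold and 2-fold. In the third stretch, M6pr, the receptor that sorts lysosomal enzymes, was at 289, 228 and 245 CPM against 155 to 170 CPM (median 161), and the importin Ipo8 at 183, 176 and 183 CPM against 116 to 149 CPM (median 133). Ift122, of the transport complex of cilia and near the end of the second stretch, was at 27.7, 21 and 25.2 CPM against 8.09 to 10.3 CPM (median 8.99). Its 2.77-fold difference was among the 5 largest of protein-coding genes whose mean reached 5 CPM. Genes of protein folding and turnover had 8 of 12 with the 3 clones highest and a median of 0.52, among them the Hsp90 partner Fkbp4 at 1223, 1224 and 1251 CPM against 783 to 1028 CPM (median 845), the prohibitin Phb2 at 616, 535 and 562 CPM against 336 to 435 CPM (median 356), and Ints13 of the Integrator complex, also on that list, at 128, 113 and 117 CPM against 77.2 to 90.7 CPM (median 83.3).

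Metabolic genes had clones 1, 6 and 13 highest in 9 of 13, with 12 at least 1.2-fold higher, 1 lower (Eno2) and a median of 0.51. Bcat1, which transfers the amino group of branched-chain amino acids, was at 555, 452 and 514 CPM against 288 to 546 CPM (median 338), and clone 4, which had the 546 CPM, lay with the 3 clones. Etnk1, ethanolamine kinase, was at 222, 199 and 209 CPM against 120 to 222 CPM (median 164) and overlapped through clone 8. Receptors and signalling genes had 9 of 17 with the 3 clones highest, 14 at least 1.2-fold higher and a median of 0.66. The adiponectin receptor Adipor2 was at 285, 234 and 258 CPM against 145 to 177 CPM (median 163) and the tetraspanin Cd9 at 165, 199 and 203 CPM against 96.8 to 150 CPM (median 112), without overlap. Wnk1, a kinase of ion transport, was at 261, 291 and 298 CPM against 186 to 343 CPM (median 245), with clone 11 the highest.

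Among protein-coding genes whose mean reached 5 CPM, the largest differences also included those of A2m and Hebp1, beside Tuba3a, Ccnd2 and Ift122. A2m, a protease inhibitor, was at 27.6, 18.7 and 25.5 CPM against 4.45 to 10.4 CPM (median 6.21), 4.05-fold higher, and Hebp1, a heme-binding protein, at 23, 16 and 23.3 CPM against 5.59 to 11.5 CPM (median 7.8), 2.93-fold higher. Tmem40, in the second stretch, was at 19.7, 18.1 and 18.4 CPM against 2.3 to 23 CPM (median 6.66), with clone 4 above all 3 and the next clone at 9.08 CPM. Against the pattern, Smim10l1 was at 9.17, 7.67 and 7.1 CPM against 5.11 to 22.8 CPM (median 11.5), a difference of -0.52, with clones 8, 14 and 17 the highest. Over all 13378 genes, 6652 had a difference at or below 0. Beyond Rad18, 14 of 220 genes did so, among them Vmn2r20, Vmn2r24, Eno2, Gpr162, Styk1, Grin2b, Eps8, Pde3a, Tmem72 and 4 pseudogenes. The lowest of these, the pseudogene Dynlt1-ps1 with a mean of 1.71 CPM, had 0 counts in clones 1, 6 and 14, 2.81 CPM in clone 13 and up to 4.76 CPM elsewhere. At the end of the chromosome the last 3 genes were Resf1 at 0.16, the pseudogene Gm15784 at -0.52 and Bicd1 at 0.11.

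By level, transcript length, gene span or strand, each part of the 220 genes from Rad18 on had a median difference of 0.51 to 0.67. The choice of genes did not use length, span or strand. It did set a limit on mean CPM, which includes clones 1, 6 and 13, so the parts by level are not independent of it. In the lowest, middle and highest parts of the genes by mean CPM, the median differences were 0.65, 0.67 and 0.52. The shares with clones 1, 6 and 13 highest were 38.4, 68.5 and 73%. All genes measured, divided by mean CPM in the same way, had shares of 7.09, 7.42 and 4.37%. By transcript length the medians of the 220 genes were 0.66, 0.57 and 0.56. By gene span, the bases from the start to the end of a gene, they were 0.65, 0.51 and 0.63. In clone 1 the length trend was wider, from 0.81 for the shortest transcripts to 0.56 for the longest, and clone 1 ran from 0.12 to -0.11 over all genes in the same order. The part of this trend in the levels of clone 1 was not tested. Genes on the plus and minus strands had medians of 0.63 (113 genes) and 0.58 (107 genes). The 8 pseudogenes had a median of -0.05, and 0 of them had clones 1, 6 and 13 highest, against 132 of the 212 protein-coding genes. Over all genes measured, the 551 pseudogenes also had a lower median, -0.12, and 0.907% of them had the 3 clones highest, against 6.52% of protein-coding genes.

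The division of reads between the transcripts of a gene gave a readout apart from the gene level. Of the 54 genes chosen by the naming rule, 51 had at least 2 annotated transcripts. In 0 of these did the share of the leading transcript in clones 1, 6 and 13 lie wholly above or below the shares in the other 6 clones, beside 3.24% of the 11418 measured genes with at least 2 transcripts and a count in every clone. A share this near the background is no result about the region. For Vhl the leading transcript took 89.3, 97.8 and 94% of the gene's counts in clones 1, 6 and 13 and 90.9 to 98.5% in the others. The leading transcript of Phc1 took 49.5, 50 and 44.9% and 41.6 to 50.4%.

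The 11 genes left out by name had a median difference of 0.63. For 8 of them clones 1, 6 and 13 were the 3 highest, beside 6.29% of all genes. Rpl32, a ribosomal protein in the second stretch, was at 1574, 1151 and 1250 CPM against 610 to 771 CPM (median 682), and the glucose transporter Slc2a3 at 1488, 1159 and 1293 CPM against 774 to 942 CPM (median 834). The exceptions were Nanog, Dppa3 and Rps25-ps1. Nanog was at 537, 454 and 493 CPM against 249 to 473 CPM (median 294), and clone 4 lay above clone 6. Dppa3 was at 54.5, 60 and 52.8 CPM, with clone 4 the highest at 78.9 CPM. The pseudogene Rps25-ps1 was at 0.85 CPM in clone 6, below the median of 1.14 CPM in the other 6.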

How the data were processed

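RNA-seq libraries of 9 E14 clones were prepared, per the labels' protocols, with a strand-specific mRNA kit. The submitters' processing notes name CASAVA 1.8, FastQC, Trimmomatic 0.33 and kallisto 0.43.1 and the builds mm10 and GRCm38; the annotation release and the strand setting are not given in the sources used here. The authors deposited, per the file headers, an estimated count and a TPM value for each of 115270 transcripts. The estimated counts are divided between similar transcripts, so pseudogenes and near-identical copies are uncertain.

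Transcripts were matched to GENCODE M21, which held 113580 (98.53%), and summed to 35580 genes. The rest, 0.641 to 0.773% of each library, was left out. Log2 CPM used TMM factors and a prior count of 2 (edgeR 4.0.16, R 4.3.3, not rounded), for genes whose mean reached 1 CPM. A difference is the median over clones 1, 6 and 13 minus the median over the other 6. Clones have no group in the labels used here, so no test was made. The steps were tested on simulated data. Promoters came from RefSeq. Python 3.11.15, numpy 2.4.6, pandas 2.3.3, scipy 1.17.1 and matplotlib 3.10.9 were used.

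The region, the 3 clones and the 9 role lists were chosen with earlier results of these data known. Named were up to 4 genes of highest mean CPM per list, the 5 protein-coding genes (mean of 5 CPM or higher) of largest and of smallest difference and the 5 of largest range, the first and last 3 genes, the 3 before the start, and Ccnd2, Cdkn1b, Foxm1, Vhl, Phc1, Chd4, Tead4 and Ldhb. Some genes the rule names are not reported here. Other genes named, the borders of the stretches and the 1.2-fold used for counts were chosen after their values were seen. Alternatives were other size factors, factors without chromosomes 6, 8 and 11, other filters, a prior count of 0.5, log2(TPM + 1), other reference levels, protein-coding genes alone, no genes left out by name, a start 10 Mb further on, and each clone left out.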

Additional observations from a re-analysis of the deposited data

How the results depend on the processing

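With 1 library per clone, the spread between cultures is unknown, and depth limits the genes near 1 CPM. The medians of clones 1, 6 and 13 and of both stretches from Rad18 on stayed above 0 under every alternative run, while medians near 0, such as those of clones 4, 11 and 17 and of the first stretch, crossed 0 in some. No paired analysis was possible because the clones have no groups and no shared replicate numbers. The medians of the 239 genes, as deviations from the 9-clone median, were 0.450 in clone 1, 0.329 in clone 6 and 0.419 in clone 13, and -0.052, -0.091, -0.089, -0.051, -0.074 and -0.081 in clones 4, 8, 10, 11, 14 and 17. Without the filter on low levels (464 genes) they were 0.249, 0.202 and 0.281 in clones 1, 6 and 13 and 0.000 in clones 4, 8, 10, 14 and 17. On log2(TPM + 1) they were 0.336 in clone 1, -0.028 in clone 10 and -0.113 in clone 14. Against the gene mean, clones 4, 8, 10, 11, 14 and 17 stood at -0.177, -0.199, -0.198, -0.181, -0.194 and -0.170. Against the median of the other 6 clones, the medians were 0.661, 0.021, 0.509, -0.004, -0.005, 0.005, 0.584, -0.008 and 0.003 in clones 1, 4, 6, 8, 10, 11, 13, 14 and 17. With each clone left out in turn, clone 8 ranged from -0.146 to -0.056, clone 10 from -0.153 to -0.060, clone 11 from -0.118 to -0.028 and clone 14 from -0.128 to -0.050. The share of genes with clones 1, 6 and 13 highest was 31.5% without the filter, 62.2% at a mean of at least 5 CPM and 48.5% on log2(TPM + 1). The stretch medians on log2(TPM + 1) were 0.870 from Rad18 to Tmcc1 and 0.458 beyond, and the latter ranged from 0.503 to 0.590 with each clone left out. Before Rad18 the median ranged from -0.021 to 0.077 with each clone left out. Of the ranges of the 54 named genes, 23 moved on log2(TPM + 1). The causes of these shifts were not tested. The run without the filter took in genes of lower levels.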

Other observations

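The distal end of chromosome 14, noticed after the values were seen, held a second stretch with clones 1, 6 and 13 high. From Mzt1, at base 99034544 of GRCm38, to the last measured gene, 46 genes had a median difference of 0.48 (1.4-fold). Of these, 42 were above 0, beside 6726 of all 13378 genes. For 19 (41.3%) clones 1, 6 and 13 were the 3 highest, beside 6.29% of all genes. The clone medians relative to the other 6 were 0.47, 0.42 and 0.53 in clones 1, 6 and 13 and between -0.04 and 0.03 in the others. The 438 genes of chromosome 14 before Mzt1 had a median difference of 0.01. Of them, 225 were above 0 and 26 (5.94%) had the 3 clones highest. Ipo5, a nuclear import receptor, was at 1134, 1285 and 1367 CPM, clones in the order above, against 800 to 1016 CPM (median 887). Uchl3, a ubiquitin hydrolase, was at 92.7, 91.9 and 99.7 CPM against 50.9 to 55.5 CPM (median 54.3). Dis3, an exosome nuclease, was at 245, 257 and 270 CPM against 172 to 199 CPM (median 188), and the kinase Stk24 at 119, 115 and 126 CPM against 77.9 to 84.9 CPM (median 82.4). These 4 genes were picked from the 19, so their lack of overlap between the clones was fixed by that choice. Of other genes there, Klf5 was highest in clone 17 and Rbm26 in clone 8. Mycbp2 and Spry2 had differences of 0.05 and -0.04. Clone 13 had the highest median here, whereas clone 1 had the highest on distal chromosome 6.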
